A study of Mus musculus with 6 samples.

Results

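The enzymes described here are the phase I and phase II enzymes of drug and steroid metabolism in primary mouse hepatocytes: the cytochromes P450 of families Cyp1, Cyp2 and Cyp3, the flavin-containing monooxygenases (Fmo), the UDP-glucuronosyltransferases of families Ugt1 and Ugt2, and the cytosolic sulfotransferases (Sult). They were chosen by gene symbol in the array's annotation, not by how they behaved. The array carried 103 probes for 75 such genes, of which 51 probes for 37 genes were detected on both arrays of at least 1 group. Each of the 37 genes entered the tests through its brightest detected probe, among 8058 tested features in all. The other detected probes were read from a separate fit of all 10530 detected probes. The cells came from male mice labelled wildtype on a c57Bl6/J background, 10 weeks old, and were treated with KD3010, with GW1516 or with the vehicle DMSO. Both compounds activate PPAR-delta, which is a nuclear receptor for genes of fatty acid use. Each group held 2 Illumina bead arrays, which the labels call technical replicates, so p-values here speak of arrays and say nothing of the spread over cultures or animals. The sources used here give no dose or duration, so whether the agonists were matched in either cannot be told.

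Phase I enzymes add or expose a reactive group on a lipid-soluble compound. The cytochromes P450 are haem enzymes of the endoplasmic reticulum that take electrons from the reductase Por, and the Fmo enzymes oxygenate nitrogen and sulfur atoms. Phase II enzymes join a water-soluble group to the product, glucuronic acid in the case of the Ugt enzymes and sulfate in the case of the Sult enzymes. In liver these genes are controlled by receptors that sense foreign compounds: Ahr acts on Cyp1a genes, the constitutive androstane receptor Nr1i3 (CAR) on Cyp2b genes and the pregnane X receptor Nr1i2 (PXR) on Cyp3a genes. Several members differ between male and female mouse liver through the pattern of growth hormone release, and many P450 genes are known to decline when hepatocytes are placed in culture.

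Intensities are given on the log2 scale after background correction and quantile normalization. Levels of different probes are not compared, since a probe's brightness depends on its sequence. Between 10239 and 10805 probes were detected per array. The cells expressed hepatocyte genes: 13 of 16 hepatocyte markers with a probe were detected on all 6 arrays. Array medians over the 14 tested lay between 12.97 and 13.15. Alb and Tat had a probe but did not pass the detection filter. Of the other cell types that a preparation could hold, sinusoidal endothelial markers were detected on all 6 arrays for 8 of 11 genes, stellate cell and fibroblast markers for 3 of 12, cholangiocyte markers for 2 of 7, Kupffer cell markers for 0 of 13 and lymphocyte markers for 0 of 8. Creb3l3, a transcription factor of the fasted liver, was 2.05 higher with KD3010 than with DMSO (adjusted p = 0.00427, limma). With GW1516 it was 1.98 higher than with DMSO (adjusted p = 0.00285, limma). It was picked as a control of agonist response from earlier results of these arrays. Its values are therefore no independent test of that response.

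Of the 37 tested enzymes, 35 were detected on all 6 arrays, and they covered each of the families: 1 of 3 Cyp1 genes on the array, 18 of 36 Cyp2 genes, 3 of 6 Cyp3 genes, 3 of 5 Fmo genes, 2 of 3 Ugt1 genes, 5 of 10 Ugt2 genes and 5 of 12 Sult genes. The exceptions were Cyp2g1, detected on 3 arrays, and Fmo4, detected on 5. Cyp2g1 entered the tests only through KD3010, where both of its arrays passed, against 0 arrays with GW1516 and 1 with DMSO. The members nearest to the limit of 0.05 on the detection p were, on the passing side, Cyp2g1 at 0.0451, Fmo4 at 0.0351 and Sult1e1 at 0.0088 for the worse array of their best group. On the other side lay Fmo2 at 0.0514, Sult1c2 at 0.0564, and Cyp2c39 and Sult2b1 at 0.0664 each.

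The other 38 genes were not tested, and 32 of them were detected on 0 arrays. These 32 hold Cyp1a1, the classical Ahr target, and every gene of the Cyp2j subfamily on the array (5 genes). The remaining 6 were detected on 1 or 2 arrays: Cyp1b1 and Cyp2d12 on an array of DMSO, Cyp2c39 and Sult1c2 on an array each of KD3010 and GW1516, and Fmo2 and Sult2b1 on an array each of GW1516 and DMSO. Some members are known for sex bias in mouse liver. Cyp2d9, a male-predominant steroid hydroxylase, was detected on all 6 arrays. Of 7 genes known to be female-biased, 5 had a probe and 0 of these were tested (Cyp2b9, Cyp2b13, Cyp3a41a, Cyp3a44 and Sult3a1). A gene not detected here gave no reading above the array background, so its response could not be read. An undetected probe sets no limit on its gene. Cyp2c37, for example, had a probe detected on 0 arrays beside another detected on all 6.

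The first comparison, KD3010 against DMSO, asks how the enzymes stood in cells given that agonist. With KD3010, 0 of 37 enzymes passed the test, an adjusted p below 0.05 with at least a 1.5-fold difference, where 10 of all 8058 features did (0.124%). At an unadjusted p below 0.05 there were 7 enzymes, against 12.2% of all features, with 4 above DMSO (5.44% of features) and 3 below (6.76%). A difference of at least 1.5-fold was seen for 4 enzymes, against 4.55% of all features. The enzymes farthest from DMSO were a pair of flavin monooxygenases on opposite sides, Fmo5 above and Fmo1 below. The glucuronosyltransferase Ugt2b35 lay below DMSO, and the cytochromes Cyp2b10, Cyp2b23 and Cyp3a25 lay above it.

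Fmo1, an oxygenase of drug nitrogen and sulfur atoms, had intensities of 11.08 and 11.28 with KD3010, 12.27 and 11.75 with GW1516, and 11.94 and 11.87 with DMSO. Both KD3010 arrays lay below the other 4. The difference of KD3010 from DMSO was -0.72 ± 0.20 (SE), a 1.65-fold lower intensity, with a 95% interval of -1.17 to -0.28 (adjusted p = 0.239, limma). With the authors' own normalized intensities the same difference was -0.69 and passed, at an adjusted p of 0.0384 (limma), and with a variance prior that follows intensity and resists outliers it was -0.72 with an adjusted p of 0.0330 (limma). The call on Fmo1 therefore depended on these settings. Its sign was negative in all 19 alternatives run, but many of them could not change it. Fmo1 has a single probe, so the filters, probe choices, variance prior and replicate term left its difference at -0.72.

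Ugt2b35, a transferase of the liver Ugt2b group, had intensities of 10.87 and 10.84 with KD3010, 11.64 and 11.55 with GW1516, and 11.55 and 11.37 with DMSO. The KD3010 arrays again lay below the other 4, and the array pairs were close to each other. The difference from DMSO was -0.60 ± 0.16 (SE), with a 95% interval of -0.96 to -0.24, and its adjusted p of 0.221 was the smallest of any enzyme in this comparison (limma). In this comparison Ugt2b35 passed in 0 of 19 alternatives. Its adjusted p was 0.0405 with the authors' normalized intensities and 0.0487 with no background correction (limma), but its difference of -0.54 in both was under 1.5-fold. The promoter window of Ugt2b35 is shown because its difference between the agonists passed under some settings. Fmo1, the other gene with such a difference, had no entry in the promoter table. The window covers 250 bases before to 50 after the RefSeq start in GRCm38.p6, chr5:87000610-87000909 on the plus strand, and the capitals mark AGGTCA, the nuclear receptor half-site letters, found at base 36.
Ugt2b35: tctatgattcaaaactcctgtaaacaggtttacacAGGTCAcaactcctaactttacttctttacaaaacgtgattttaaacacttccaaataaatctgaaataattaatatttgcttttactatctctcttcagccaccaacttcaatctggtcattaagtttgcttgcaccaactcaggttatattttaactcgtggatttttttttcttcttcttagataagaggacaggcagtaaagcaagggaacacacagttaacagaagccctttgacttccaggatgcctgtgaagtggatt

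Fmo5, a monooxygenase known for oxidising ketones to esters, had intensities of 7.85 and 8.45 with KD3010, 8.002 and 8.001 with GW1516, and 6.91 and 7.64 with DMSO. All 4 agonist arrays lay above both DMSO arrays, but the DMSO arrays were far apart. The difference of KD3010 from DMSO was 0.87 ± 0.26 (SE), or 1.83-fold, with a 95% interval of 0.28 to 1.47 (adjusted p = 0.257, limma). Without the first DMSO array it was 0.51, and without the second it was 1.23, so a single DMSO array moved its size. With the authors' normalized intensities it was 0.43. A second Fmo5 probe was detected on 0 arrays.

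**Figure D1:**
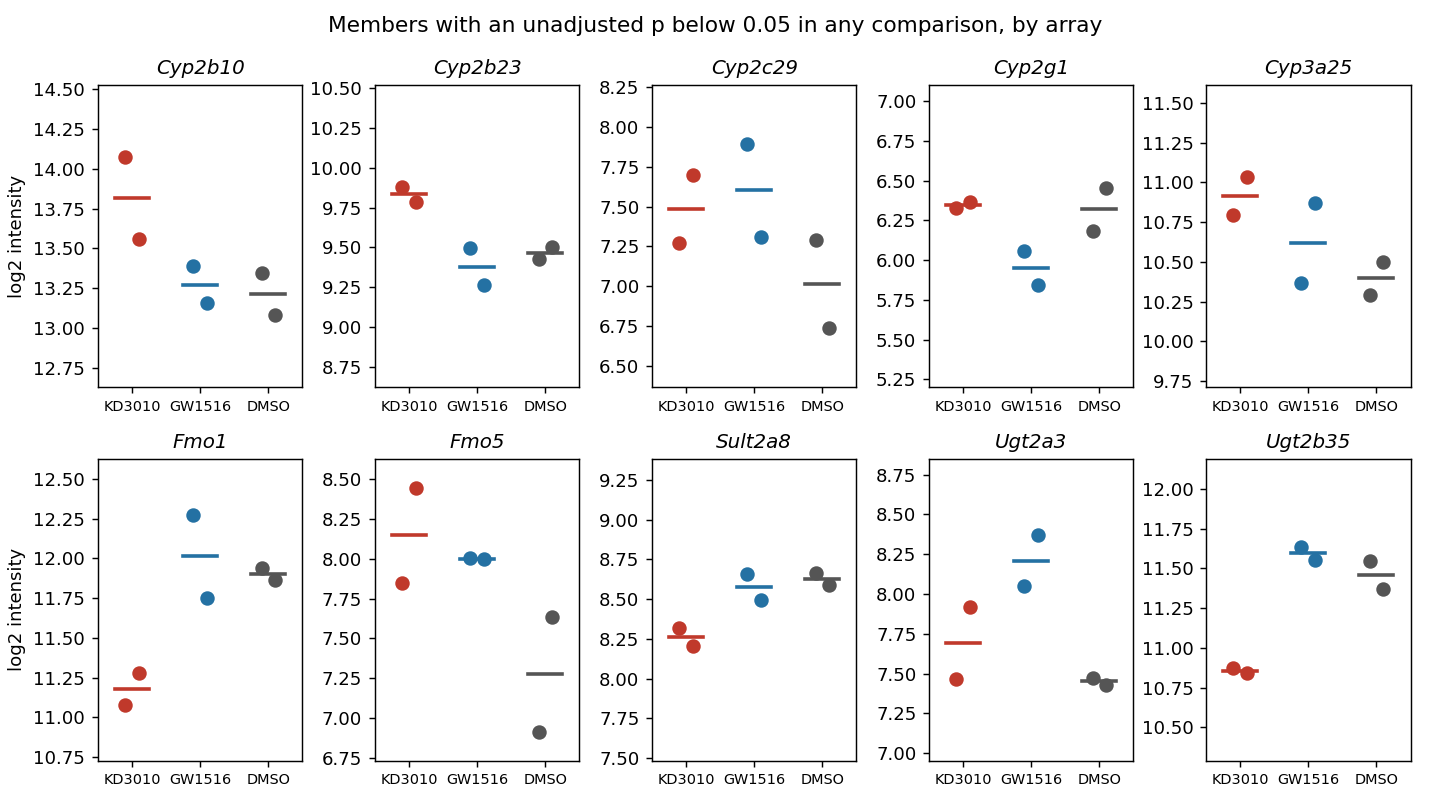
Log2 intensity on each of the 6 arrays for the 10 enzymes with an unadjusted p below 0.05 in any of the 3 comparisons, with points for arrays and a bar for the mean of each group of KD3010, GW1516 and DMSO. The vertical axes span the same width in every panel, and the KD3010 arrays of Fmo1 and Ugt2b35 lie below the other 4, while those of Cyp2b10 and Cyp2b23 lie above them.

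Both detected members of the Cyp2b subfamily, the classical targets of CAR, lay above DMSO with KD3010 without passing the test. Cyp2b10, the phenobarbital-inducible enzyme of mouse liver, had intensities of 14.08 and 13.56 with KD3010, 13.39 and 13.16 with GW1516, and 13.35 and 13.08 with DMSO. The difference from DMSO was 0.61 ± 0.21 (SE), or 1.52-fold, with a 95% interval of 0.13 to 1.08 (adjusted p = 0.316, limma). It was 0.34 without the first KD3010 array and 0.87 without the second. Both KD3010 arrays were above the other 4, and a second Cyp2b10 probe gave 0.44 (adjusted p = 0.471 over 10530 probes, limma). Cyp2b23 had intensities of 9.88 and 9.79 with KD3010, 9.49 and 9.26 with GW1516, and 9.43 and 9.50 with DMSO, again with both KD3010 arrays on top. Its difference from DMSO was 0.37 ± 0.16 (SE) with an adjusted p of 0.407 (limma).

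The promoter windows of Cyp2b10 and Cyp2b23, genes of the same cluster on chromosome 7, are shown together because both genes had their KD3010 arrays on top and because the sequences are related. The windows are those of RefSeq in GRCm38.p6, chr7:25897408-25897707 on the plus strand for Cyp2b10 and chr7:26686381-26686680 on the minus strand for Cyp2b23, each read in the direction of its gene. In a local alignment 225 of 281 columns were identical (80.1%), with 22 gap columns, and the capitals mark the longest run they share, 34 bases.
Cyp2b10: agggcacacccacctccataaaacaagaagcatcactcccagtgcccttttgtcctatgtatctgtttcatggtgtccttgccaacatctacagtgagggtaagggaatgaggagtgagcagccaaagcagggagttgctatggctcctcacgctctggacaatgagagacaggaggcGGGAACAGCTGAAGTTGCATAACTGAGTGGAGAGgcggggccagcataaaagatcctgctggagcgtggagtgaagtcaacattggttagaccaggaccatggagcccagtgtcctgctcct
Cyp2b23: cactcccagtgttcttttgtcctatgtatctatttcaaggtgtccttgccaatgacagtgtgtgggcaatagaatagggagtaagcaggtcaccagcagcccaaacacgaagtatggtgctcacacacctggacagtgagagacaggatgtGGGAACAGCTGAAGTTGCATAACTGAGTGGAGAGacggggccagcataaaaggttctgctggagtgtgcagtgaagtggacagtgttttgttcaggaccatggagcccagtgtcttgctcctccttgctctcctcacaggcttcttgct
Whether their probes pick up each other's transcripts was not tested.

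Nr1i3, the CAR gene itself, had intensities of 7.78 and 7.18 with KD3010, 7.12 and 7.43 with GW1516, and 6.87 and 6.87 with DMSO. All 4 agonist arrays lay above DMSO, at a difference of 0.61 ± 0.22 (SE) with KD3010 (adjusted p = 0.327, limma) and of 0.40 ± 0.22 (SE) with GW1516 (adjusted p = 0.604, limma). Neither passed.

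Among the Cyp3a genes, which are PXR targets, Cyp3a25 had intensities of 10.79 and 11.03 with KD3010, 10.37 and 10.87 with GW1516, and 10.29 and 10.50 with DMSO. The KD3010 arrays lay above those of DMSO, by 0.52 ± 0.20 (SE), or 1.43-fold (adjusted p = 0.372, limma). Cyp3a11, the main Cyp3a drug oxidase of mouse liver, had 13.24 and 13.07 with KD3010, 12.88 and 12.98 with GW1516, and 12.90 and 12.97 with DMSO. Its KD3010 arrays also lay above the other 4, by 0.22 over DMSO (adjusted p = 0.629, limma). Cyp3a13 stood on the other side, at 12.42 and 11.81 with KD3010, 12.15 and 12.25 with GW1516, and 12.53 and 12.47 with DMSO, a difference of -0.38 for KD3010 (adjusted p = 0.509, limma). Its 2 further probes gave -0.12 and -0.12. With GW1516 the brightest probe lay at -0.30 and the further probes at 0.19 and 0.12, so the sign there depended on the probe.

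Cyp1a2, which oxidises caffeine and aromatic amines, had intensities of 12.96 and 12.85 with KD3010, 12.71 and 12.60 with GW1516, and 12.54 and 12.59 with DMSO. The groups did not overlap, yet the difference of KD3010 from DMSO, 0.34 with a 95% interval of -0.02 to 0.69, had an adjusted p of 0.438 (limma). A second probe of Cyp1a2 gave 0.49 (adjusted p = 0.395 over 10530 probes, limma). Sult2a8, a sulfotransferase of the Sult2a group, had intensities of 8.32 and 8.20 with KD3010, 8.66 and 8.50 with GW1516, and 8.66 and 8.59 with DMSO. Its KD3010 arrays were the lowest, at -0.36 ± 0.16 (SE) from DMSO (adjusted p = 0.406, limma).

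Cyp2e1, which oxidises ethanol and acetaminophen, had intensities of 15.46 and 15.37 with KD3010, 15.44 and 15.55 with GW1516, and 15.46 and 15.29 with DMSO. All groups overlapped, and the 95% interval of the difference was -0.32 to 0.40 for KD3010 and -0.24 to 0.48 for GW1516, both within 1.5-fold. Cyp2f2, a naphthalene oxidase, had 14.13 and 13.87 with KD3010, 13.82 and 13.92 with GW1516, and 13.99 and 13.75 with DMSO. All its groups overlapped too, and it differed from DMSO by 0.13 with KD3010 and by 0.00 with GW1516. Cyp2d9 had 14.41 and 13.97 with KD3010, 14.56 and 14.46 with GW1516, and 14.42 and 14.64 with DMSO, with both KD3010 arrays below the other 4. Its KD3010 difference from DMSO was -0.34 with a 95% interval of -0.77 to 0.09 (adjusted p = 0.526, limma). Cyp2c67, of the Cyp2c subfamily, had 13.51 and 13.02 with KD3010, 13.55 and 13.66 with GW1516, and 13.61 and 13.52 with DMSO. Its KD3010 arrays were likewise the lowest, at -0.30 from DMSO (adjusted p = 0.589, limma), and the second of them lay well under the first.

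In KD3010 against DMSO the arrays of the groups did not overlap for 18 of 37 enzymes (48.6%), where 44% of all tested features were apart. Of these, 11 were above DMSO (21.4% of features) and 7 below (22.6%). The median difference over the 37 enzymes was 0.07, against 0.00 over all features. Under median scaling it was -0.013, where the scaling shifted the median of all features by -0.12. In the setting used, 26 of 37 enzymes lay above 0, where 49.8% of features did. The 26 include Cyp2g1, at 0.03, which was tested only through its KD3010 arrays. Single differences ran from -0.72 to 0.87. The 95% interval lay within 1.5-fold for 18 enzymes (47.1% of features) and within 2-fold for 32 (93.2% of features).

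**Figure D2:**
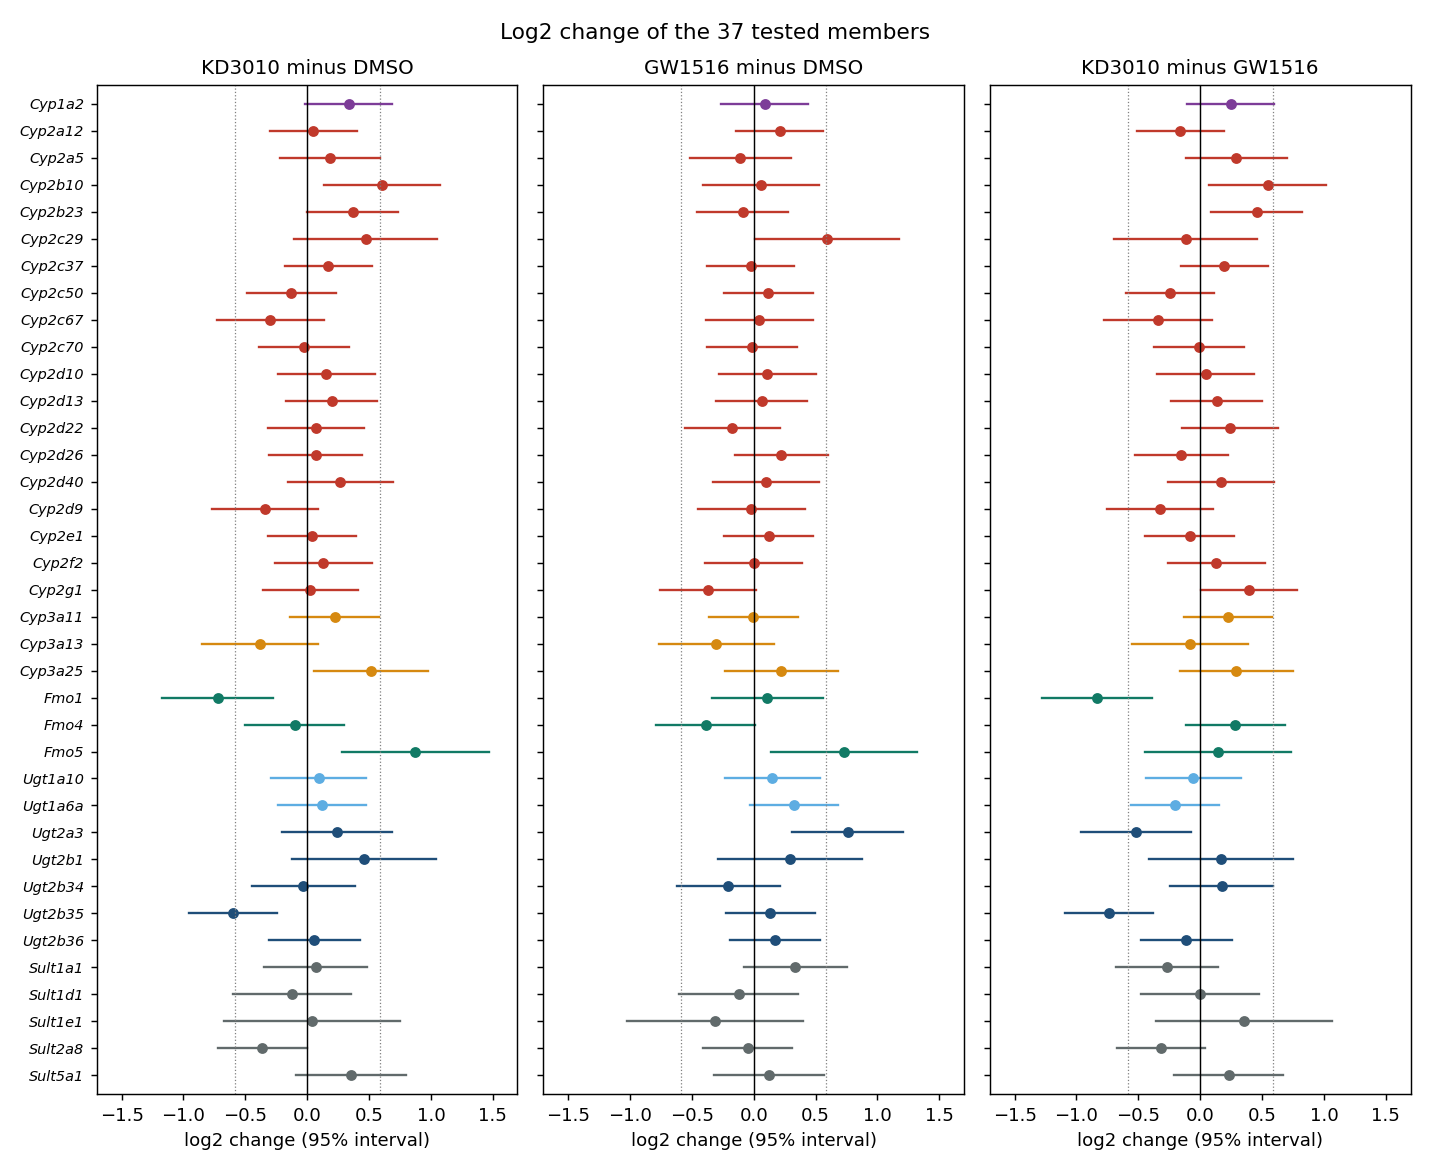
Log2 difference of each of the 37 enzymes in KD3010 minus DMSO, GW1516 minus DMSO and KD3010 minus GW1516, with lines for the 95% interval from limma, colours for the families and dotted lines at 1.5-fold. With KD3010 against DMSO, Fmo1 at -0.72 and Ugt2b35 at -0.60 lie on the left and Fmo5 at 0.87 on the right, while most intervals cross 0.

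The second comparison set GW1516 against DMSO, with the same DMSO arrays as the first. Here too 0 of 37 enzymes passed, where 7 of all features did (0.0869%). At an unadjusted p below 0.05 there were 3 enzymes, against 9.52% of all features. These were Ugt2a3, Fmo5 and Cyp2c29, all above DMSO (4.69% of features), with 0 below (4.83%). Each of the 3 also had a second probe, which was detected on 0 arrays, so each reading rests on a single probe. The same 3 were at least 1.5-fold from DMSO, against 3.57% of all features. Ugt2a3, a glucuronosyltransferase of the Ugt2a group, was the farthest of the 37 from DMSO.

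Ugt2a3 had intensities of 7.47 and 7.92 with KD3010, 8.05 and 8.37 with GW1516, and 7.47 and 7.43 with DMSO. The GW1516 arrays lay above the other 4, and those of KD3010 overlapped DMSO. The difference of GW1516 from DMSO was 0.76 ± 0.20 (SE), or 1.69-fold, with a 95% interval of 0.31 to 1.21 (adjusted p = 0.337, limma). It was 0.39 with the authors' normalized intensities and 0.38 with no background correction, both under 1.5-fold. Fmo5 stood 0.73 ± 0.26 (SE) above DMSO with GW1516, or 1.66-fold, with a 95% interval of 0.14 to 1.32 (adjusted p = 0.437, limma). This too turned on the DMSO arrays, at 0.36 without the first and 1.09 without the second, and it was 0.34 with the authors' normalized intensities.

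Cyp2c29, an enzyme of the Cyp2c subfamily, had intensities of 7.27 and 7.70 with KD3010, 7.90 and 7.31 with GW1516, and 7.29 and 6.73 with DMSO. The GW1516 arrays lay just above those of DMSO, and each pair of arrays was widely spread. The difference was 0.59 ± 0.26 (SE) for GW1516 (adjusted p = 0.513, limma) and 0.47 ± 0.26 (SE) for KD3010 (adjusted p = 0.510, limma). The GW1516 difference ran from 0.30 to 0.88 when single arrays of either group were left out, and was 0.25 with the authors' normalized intensities.

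Of the conjugating enzymes with GW1516, Sult1a1, which sulfates phenols, had intensities of 11.91 and 12.05 with KD3010, 12.09 and 12.40 with GW1516, and 11.75 and 12.06 with DMSO. Its GW1516 arrays lay above DMSO by 0.34 (adjusted p = 0.607, limma). Ugt1a6a, which glucuronidates phenols, had 9.53 and 9.60 with KD3010, 9.76 and 9.77 with GW1516, and 9.36 and 9.53 with DMSO, a GW1516 difference of 0.32 (adjusted p = 0.552, limma). A second Ugt1a6a probe stood on the other side, at -0.41 with GW1516, so the sign for this gene depended on the probe. Genes of the Ugt1a locus share exons, and which transcripts each probe reads was not tested.

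Ugt2b1 had intensities of 10.79 and 11.28 with KD3010, 10.69 and 11.04 with GW1516, and 10.23 and 10.92 with DMSO, with all groups overlapping and differences of 0.46 and 0.29 from DMSO for KD3010 and GW1516. Ugt2b34 had 8.70 and 9.04 with KD3010, 8.57 and 8.82 with GW1516, and 8.79 and 9.01 with DMSO. Its groups overlapped too, and it differed from DMSO by -0.03 with KD3010 and -0.20 with GW1516. Sult1d1, which sulfates catecholamines, had 7.71 and 8.32 with KD3010, 8.02 and 8.01 with GW1516, and 8.26 and 8.02 with DMSO, so that the KD3010 arrays spanned the others. Sult1e1, the oestrogen sulfotransferase, was the most scattered enzyme, at 6.90 and 7.24 with KD3010, 7.02 and 6.41 with GW1516, and 7.53 and 6.53 with DMSO. Its SE of 0.32 left its response unresolved.

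With GW1516, 14 of 37 enzymes lay below DMSO, among them both members nearest to the detection limit. Cyp2g1 had intensities of 6.33 and 6.37 with KD3010, 6.06 and 5.85 with GW1516, and 6.18 and 6.46 with DMSO. Since it was detected on 0 GW1516 arrays and 1 DMSO array, no fold is given for it. Fmo4 had 6.40 and 6.26 with KD3010, 5.91 and 6.19 with GW1516, and 6.31 and 6.56 with DMSO, a GW1516 difference of -0.39 (adjusted p = 0.537, limma) with 1 of 2 GW1516 arrays detected.

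In GW1516 against DMSO the arrays were apart for 15 of 37 enzymes, against 40.5% of all features, with 11 above (20.7% of features) and 4 below (19.8%). The 4 below include Cyp2g1 and Fmo4, detected on 0 and 1 GW1516 arrays. Both passed the filter only through other groups, so their place in that count rests on the filter. The median difference was 0.09, against 0.00 over all features, and under median scaling it was -0.0082. That scaling also lowered single enzymes, such as Fmo1 from 0.11 to -0.0058 and Ugt2b35 from 0.14 to 0.016. The value of -0.0082 is therefore not set against 0.00. In the setting used, 23 of 37 enzymes lay above 0, against 50.6% of features. Single differences ran from -0.39 to 0.76. The 95% interval lay within 1.5-fold for 23 enzymes (49.6% of features) and within 2-fold for 33 (94.2% of features).

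KD3010 was then compared directly with GW1516. No enzyme passed (0 of 37), and of all 8058 features 0 passed as well (0%), while 6 enzymes and 13.9% of features had an unadjusted p below 0.05. Of these 6, 3 were higher with KD3010 (6.14% of features) and 3 lower (7.78%). The 3 higher were Cyp2b10, Cyp2b23 and Cyp2g1, and Cyp2g1 was in the test only through its KD3010 arrays, so its place in that count rests on the filter. A difference of at least 1.5-fold was seen for 2 enzymes, against 5.26% of features. Fmo1 and Ugt2b35 gave the largest differences. The KD3010 minus GW1516 difference of Fmo1 was -0.83 ± 0.20 (SE), or 1.78-fold lower, with a 95% interval of -1.28 to -0.39 (adjusted p = 0.161, limma). The GW1516 arrays of Fmo1 were themselves apart by more than those of the other groups, and the difference was -0.57 without the first of them and -1.10 without the second. For Ugt2b35 it was -0.74 ± 0.16 (SE), or 1.67-fold lower, with a 95% interval of -1.09 to -0.38 (adjusted p = 0.146, limma).

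Both differences passed under other processing. With the authors' normalized intensities the adjusted p was 0.0149 for Fmo1 at -0.78 and 0.0104 for Ugt2b35 at -0.67 (limma). With no background correction it was 0.0341 for Fmo1 at -0.78 and 0.0165 for Ugt2b35 at -0.67 (limma). With the variance prior that follows intensity it was 0.00973 and 0.0131 (limma). Both stayed negative in all 19 alternatives, though the filters, probe choices, variance prior and replicate term cannot change the difference of a gene with a single probe. The lowest adjusted p was 0.00973 for Fmo1 and 0.0104 for Ugt2b35 (limma). With no filter on dim probes it was 0.333 for Fmo1 and 0.322 for Ugt2b35 (limma).

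**Figure D3:**
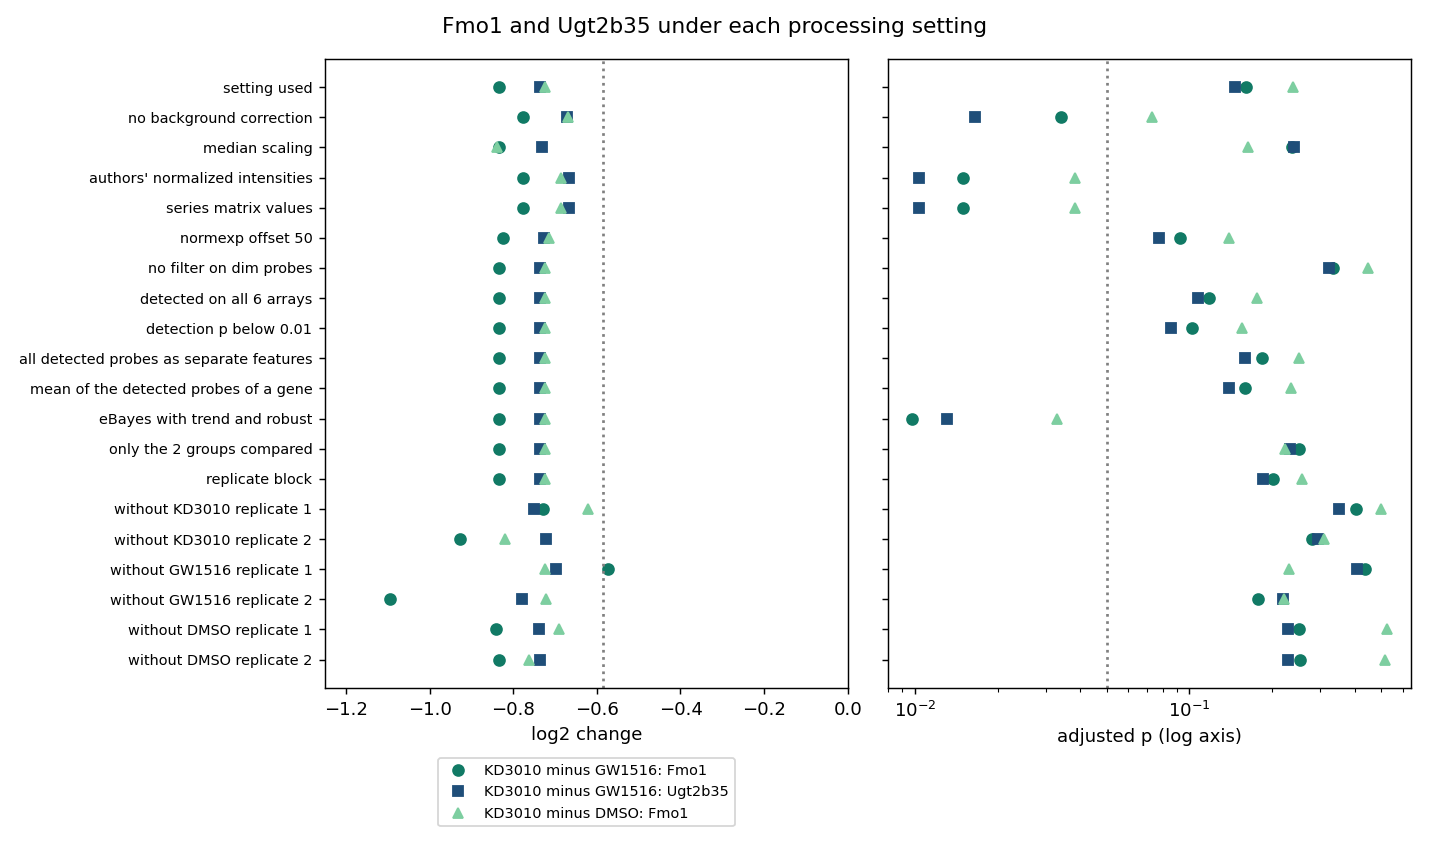
Log2 difference (left) and adjusted p on a log axis (right) under the setting used and each of 19 alternatives, for Fmo1 and Ugt2b35 in KD3010 minus GW1516 and for Fmo1 in KD3010 minus DMSO, with dotted lines at 1.5-fold lower and at an adjusted p of 0.05. The difference of Fmo1 from GW1516 runs from -1.10 without the second GW1516 array to -0.57, inside the 1.5-fold line, without the first, and the adjusted p lies on either side of 0.05.

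Of the other enzymes between the agonists, Cyp2b10 stood higher with KD3010 by 0.54 ± 0.21 (SE), or 1.46-fold (adjusted p = 0.298, limma), and its second probe by 0.86 (adjusted p = 0.191 over 10530 probes, limma). That probe was detected on 1 of 2 GW1516 arrays, and it lay at -0.41 in GW1516 minus DMSO (adjusted p = 0.604 over 10530 probes, limma), where the probe used in the tests lay at 0.06. Cyp2b23 stood higher by 0.46 ± 0.16 (SE) (adjusted p = 0.267, limma). Ugt2a3 stood lower with KD3010, at -0.52 with a 95% interval of -0.96 to -0.07 (adjusted p = 0.298, limma). Cyp2a5, the coumarin hydroxylase, had 14.43 and 14.82 with KD3010, 14.39 and 14.27 with GW1516, and 14.52 and 14.37 with DMSO. All 4 of its probes lay above GW1516 with KD3010, by 0.29, 0.46, 0.35 and 0.34, while against DMSO they gave 0.18, 0.40, 0.25 and -0.19. Cyp2c67 lay at -0.34 (adjusted p = 0.473, limma). Fmo5 differed by 0.15, with a 95% interval of -0.44 to 0.74 that reaches past 1.5-fold, so a difference of that size was not resolved.

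Between the agonists the arrays were apart for 21 of 37 enzymes, against 45.3% of all features, with 10 above (21% of features) and 11 below (24.3%). The 10 above include Cyp2g1, whose place there rests on the filter. They also include Fmo4, which passed the filter through KD3010 and DMSO and was detected on 1 of 2 GW1516 arrays. The median difference was 0.04 (0.00 over all features). Those above 0 were 19 of 37, Cyp2g1 and Fmo4 among them, against 49.3% of features. The 95% interval was within 1.5-fold for 14 enzymes (44.5% of features) and within 2-fold for 33 (92.1% of features). The differences of KD3010 and GW1516 from DMSO share their DMSO arrays, and no correlation between them is given.

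By family, medians in KD3010 minus DMSO were 0.34 for the single Cyp1 gene, 0.10 for Cyp2, 0.22 for Cyp3, -0.10 for Fmo, 0.11 for Ugt1, 0.06 for Ugt2 and 0.04 for Sult. In GW1516 minus DMSO they were 0.09 for Cyp1, 0.05 for Cyp2, 0.00 for Cyp3, 0.11 for Fmo, 0.24 for Ugt1, 0.17 for Ugt2 and -0.05 for Sult. The cytochrome medians were higher with KD3010 and the Ugt medians higher with GW1516, as a description of a few genes each and with no test. The order turned for Cyp3 when every detected probe was counted separately (-0.12 with KD3010 and 0.12 with GW1516). The Ugt1 median rests on 2 genes, Ugt1a10 and Ugt1a6a. A second Ugt1a6a probe gave -0.34 with KD3010 and -0.41 with GW1516, so for that gene the order depended on the probe. Within Cyp2, the median of the Cyp2b pair was 0.49 with KD3010 and -0.01 with GW1516, while Cyp2c was at -0.02 and 0.05 and Cyp2d at 0.11 and 0.08. Fmo held the widest spread of any family with KD3010, from -0.72 for Fmo1 to 0.87 for Fmo5. With 3 genes its median is the value of a single member. That is Fmo4, which lies near the detection limit, with KD3010 (-0.10) and Fmo1 with GW1516 (0.11).

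**Figure D4:**
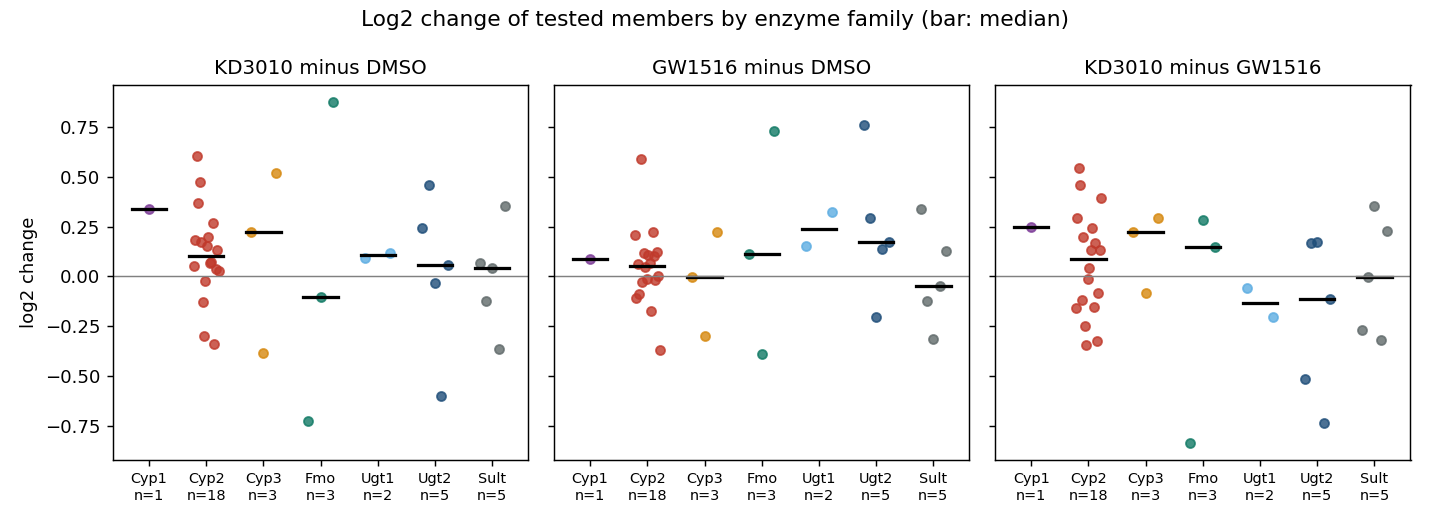
Log2 difference of each tested enzyme (points) by family in the 3 comparisons, with a bar at the family median and the number of genes under each name. Family medians lie between -0.10 and 0.34 with KD3010 against DMSO, and single genes run from -0.72 to 0.87.

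Genes that neighbour each other did not all stand on the same side. The group on chromosome 5 that holds Sult1d1, Sult1e1 and 5 Ugt2 genes ran from -0.60 for Ugt2b35 to 0.46 for Ugt2b1 with KD3010, and from -0.31 to 0.76 with GW1516. In the Cyp2a, Cyp2b, Cyp2f and Cyp2g group of 6 genes on chromosome 7, the 5 genes other than Cyp2g1 lay above 0 with KD3010 (0.05 to 0.61). Cyp2g1 lay at 0.03 but was tested only through its KD3010 arrays, and a further Cyp2a5 probe lay at -0.19. With GW1516 the differences ran from -0.11 to 0.21 over the 5 genes other than Cyp2g1, which was not detected there. A group here is a chain of members, each starting less than 1000000 bases from the next in the RefSeq annotation, so a whole group can span more. Genes with more than a single detected probe gave 14 further probes for 10 genes, and these had the sign of the brighter probe in 9 of 14 cases for KD3010 against DMSO, 8 of 14 for GW1516 against DMSO and 11 of 14 for KD3010 against GW1516.

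Promoter windows were available from RefSeq (GRCm38.p6) for 33 of the 37 enzymes. AGGTCA, searched on both strands, was present in 12 of them (36.4%), against 16% of all 27025 windows. The direct repeat that PPAR and its partner RXR bind, here 2 copies of AGGTCA with any 1 base between them and so overlapping that motif, was in 0 of 33, against 0.0444% of all windows. AGTTCA, a half-site of CAR and PXR, was in 4 (12.1%), against 14% of all windows, and GCGTG, the core letters bound by Ahr, was in 2 (6.06%, Cyp2b10 and Sult1d1), against 32.5%. These matches describe letters in a short window and not binding.

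Genes that serve these enzymes were read from lists in the same way. Of 13 tested regulators, 0 passed in any comparison, with 3 above DMSO at an unadjusted p below 0.05 with KD3010 (5.44% of all features) and 3 with GW1516 (4.69% of all features). Of 13 tested electron donors and haem enzymes, 0 passed, and their median was 0.02 with KD3010 and -0.08 with GW1516. Hmox1, which degrades haem, lay lower with both agonists, at -0.58 ± 0.20 (SE) with KD3010 (adjusted p = 0.316, limma) and -0.53 ± 0.20 (SE) with GW1516 (adjusted p = 0.458, limma).

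A list around the cofactors of conjugation, UDP-glucuronic acid and activated sulfate, held 8 tested genes. Not all of them supply these cofactors, since Gusb and Bpnt1 are among them. Ugdh, which makes UDP-glucuronic acid, was not tested. The 8 genes had the lowest median of these lists, -0.33 with KD3010 and -0.17 with GW1516, and 0 of 8 passed. Ugp2, which makes UDP-glucose, had intensities of 9.06 and 8.82 with KD3010, 9.16 and 9.33 with GW1516, and 9.45 and 9.58 with DMSO. The 3 groups did not overlap, and the KD3010 difference was -0.57 ± 0.17 (SE) (adjusted p = 0.257, limma). Among 14 other drug-metabolising enzymes 0 passed. Ephx1, the microsomal epoxide hydrolase, lay above DMSO by 0.38 with KD3010 (adjusted p = 0.381, limma) and 0.52 with GW1516 (adjusted p = 0.395, limma), and Adh1, an alcohol dehydrogenase, by 0.56 with KD3010 (adjusted p = 0.269, limma). Of 8 tested transporters 0 passed.

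Single markers of other cell types differed between groups without passing the test. Vim, which marks stellate cells and fibroblasts and is also expressed by cultured hepatocytes, had intensities of 10.36 and 10.36 with KD3010, 8.66 and 9.36 with GW1516, and 9.72 and 9.41 with DMSO. Its KD3010 arrays were the highest, 1.35 ± 0.23 (SE) above GW1516 (adjusted p = 0.146, limma). The other 3 tested stellate markers did not follow it, with KD3010 minus GW1516 differences of -0.41 for Acta2, -0.0043 for Dcn and 0.09 for Reln, and the median over the 4 was 0.04. Of the sinusoidal endothelial markers, Lyve1 lay below DMSO with both agonists, by -0.55 with KD3010 (adjusted p = 0.292, limma) and -0.53 with GW1516 (adjusted p = 0.418, limma), and the median over the 9 tested was -0.05 and 0.13. The cholangiocyte markers stood on opposite sides between the agonists, Cldn4 at 0.60 (adjusted p = 0.204, limma) and Sox9 at -0.49 (adjusted p = 0.315, limma). The 14 tested hepatocyte markers had a median of 0.06 in KD3010 minus DMSO, with single genes from -0.62 to 0.76. In KD3010 minus GW1516 their median was -0.07, with single genes from -0.47 to 0.48. The part of other cells, or of fewer hepatocytes, in the differences of Fmo1, Ugt2b35 and the Cyp2b genes was not tested. In bulk RNA fewer cells of a type and less RNA per cell cannot be told apart.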

How the data were processed

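For each array the deposited file gave a linear-scale bead intensity and a detection p-value per probe, per the file headers. The submitters' processing notes name GenomeStudio. A second deposited table held intensities normalized by the authors, whose method the sources used here do not give. It equalled the series matrix values (largest difference 0), and 1 column with no name was not used. Intensities were background-corrected with normexp from the detection p-values (offset 16), quantile-normalized and log2-transformed with limma 3.58.1 under R 4.3.3. A probe was kept if its detection p was below 0.05 on each array of some group, and the brightest kept probe stood for a gene. Group means were fitted to all 6 arrays together by lmFit and eBayes (3 residual and 6.54 prior degrees of freedom) and tested on simulated data. Benjamini-Hochberg adjustment ran over all 8058 features. The 2 arrays per group limit the precision. Arrays of the same number showed no shared deviation (r between -0.018 and 0.016 over 8058 features), so no replicate term was used.

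Full values were given for the 4 members farthest above and below 0 in each comparison, members not detected in every group, and a set named in every case. Other genes of the pathway came from lists, with at most 4 named per list. The members and lists were chosen with earlier results of these data known. Alternatives changed the background correction, normalization, filter, choice of probes, variance prior, arrays in the fit and the replicate term.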

Additional observations from a re-analysis of the deposited data

How the results depend on the processing

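A total of 19 alternatives were run per comparison. The number of enzymes called in GW1516 against DMSO stayed at 0 in all 19. In KD3010 against DMSO it was 1 (Fmo1) with the authors' normalized intensities, the equal series matrix values, and the variance prior with trend and robust fitting. In KD3010 against GW1516 it was 2 (Fmo1 and Ugt2b35) under these settings and with no background correction. Calls over all features ran from 0 to 49 for KD3010 against DMSO, 0 to 17 for GW1516 against DMSO and 0 to 57 for KD3010 against GW1516. With the replicate block 0 enzymes were called in each comparison, and it changed no call on an enzyme. Why these calls depend on the setting was not tested.

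Medians of small groups moved by more than the spread between arrays as follows. For KD3010 minus DMSO, median scaling gave -0.013 over all members, 0.010 for Cyp2 and 0.13 for Cyp3. Keeping dim probes gave 0.034, 0.045 and 0.15 for these, no background correction gave 0.071 for Cyp2, separate probes gave -0.12 for Cyp3, and either stricter detection filter, which leaves out Fmo4, gave 0.13 for Cyp2 and 0.076 for Fmo. For GW1516 minus DMSO, median scaling gave -0.0082 over all members, -0.043 for Cyp2, -0.12 for Cyp3 and -0.0058 for Fmo. Since this scaling shifted the median of all features with KD3010 and lowered single enzymes with GW1516, its medians are not set against 0. Keeping dim probes gave 0.042 over all members, -0.0067 for Cyp2, -0.026 for Fmo and 0.032 for Ugt2, separate probes gave -0.014 for Cyp2 and 0.12 for Cyp3, the mean of probes gave -0.0066 for Cyp2, and the stricter filters gave 0.42 for Fmo. For KD3010 minus GW1516, the stricter filters gave -0.0024 over all members, 0.045 for Cyp2 and -0.34 for Fmo. No background correction gave 0.047 for Cyp2, the authors' and series matrix values 0.049, separate probes 0.13 for Cyp2 and -0.082 for Cyp3, and keeping dim probes 0.0071 for Cyp2, 0.14 for Cyp3 and 0.033 for Ugt2.

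Leaving out single arrays gave, for KD3010 minus DMSO, 0.028 to 0.15 over all members, 0.077 to 0.14 for Cyp2, 0.14 to 0.31 for Cyp3, -0.22 to 0.023 for Fmo and -0.24 to 0.18 for Sult. For GW1516 minus DMSO it gave 0.034 to 0.093 over all members, 0.026 to 0.085 for Cyp2 and -0.15 to 0.37 for Fmo. For KD3010 minus GW1516 it gave -0.040 to 0.11 over all members, 0.044 to 0.11 for Cyp2, 0.043 to 0.27 for Cyp3, -0.15 to 0.22 for Fmo and -0.26 to 0.19 for Sult. Where an array was left out, the lone array of its group was assumed to vary like the other groups. Subfamily medians ran over all 19 alternatives from -0.12 to 0.040 for Cyp2c and 0.021 to 0.20 for Cyp2d in KD3010 minus DMSO, and from -0.048 to 0.093 and -0.0058 to 0.10 in GW1516 minus DMSO. Of 471 values of single named enzymes per comparison, the sign turned in 20, 29 and 14, none of them a called value. Many of these alternatives leave the difference of a gene with a single detected probe unchanged, so its sign could not turn there.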
